A study of Mus musculus with 8 samples.

Results

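Semaphorins, plexins and neuropilins are a family of guidance ligands and their receptors. The genes were taken by name, as every protein-coding gene whose symbol starts with Sema or Plxn, together with Nrp1 and Nrp2. This gave 31 of the 55487 genes in the count table, namely 20 semaphorins, 9 plexins and 2 neuropilins. The tumors were Lewis lung carcinoma (LLC), a transplantable mouse lung cancer line, implanted subcutaneously in C57BL/6J mice and taken at day 12, when RNA was sequenced. There were 4 wild-type tumors and 4 tumors labelled Ago2 knock-out (ΔAgo2), from 4 mice per group. Argonaute 2 binds small RNAs and silences the transcripts they match. The deletion was made in the cancer cells alone, with a CRISPR guide delivered by lentivirus and isolation of single-cell clones, of which the study chose 1 clone for engraftment. Loss of Ago2 and the choice of that clone therefore cannot be told apart, and host cells in every tumor kept Ago2.

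Semaphorins are secreted, membrane-spanning or lipid-anchored proteins that steer growing axons, vessels and migrating immune and tumor cells. Most of them bind plexins, large receptors whose inner part acts on small GTPases and so on the cytoskeleton and on integrin adhesion. Secreted class 3 semaphorins other than Sema3e need a neuropilin as co-receptor, and neuropilins also bind vascular endothelial growth factors (VEGF).

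Total counts ran from 7903288 to 52809635 in the wild-type tumors and from 31846706 to 268564145 in the ΔAgo2-labelled tumors. Levels are given as CPM, counts scaled to a common library total. By raw library totals, a count of 0 allowed a level of 0.38 CPM in wild-type tumor 4, the shallowest, and 0.0112 CPM in the deepest, which covers counting error only. On the scaled totals used for the levels below, 1 count in wild-type tumor 4 stood at 0.143 CPM. The Ago2 transcript was not lower in the labelled group (153.7 ± 28.9 CPM against 239.5 ± 99.2 CPM, SD, n = 4 each), so the level of the targeted gene did not check the labels, and every direction below is that of tumors as labelled. The lung epithelium list had 6 of 10 genes tested and 0 called, with Sftpc, Sftpb, Nkx2-1 and Scgb1a1 at 0 in at least 1 tumor. Its sums ran from 501.4 to 1261 CPM in wild-type and from 716.7 to 1250 CPM in ΔAgo2-labelled tumors, mostly from the keratins Krt8 and Krt18. ΔAgo2-labelled tumor 1 stood apart from its group, with macrophage markers summing to 2871 CPM against 1170 to 1383 CPM in the other 3 and T cell markers to 39.5 CPM against 8.31 to 11.6 CPM. In such bulk samples, fewer cells of a type and less RNA per cell cannot be told apart.

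Of the 31 genes, 29 passed the filter on low counts and were tested, and 6 of them (20.7%) differed between genotypes at an adjusted p under 0.05, where 3.49% of all 16061 genes tested did. The neuropilin Nrp2 and the plexin Plxna2 were higher in ΔAgo2-labelled tumors, which is 6.9% of the genes tested against 1.36% of all genes. The plexin Plxna4 and the semaphorins Sema7a, Sema4g and Sema3b were lower, which is 13.8% against 2.12%. An unadjusted p under 0.05 was reached by 14 of the 29 (48.3%, all genes 26.7%). The groups did not overlap in 8 genes (27.6%, all genes 16.4%). The median log2 fold change of the 29 was -0.48, against 0.04 over all genes tested. By role, 3 of 18 semaphorins tested were lower and 0 higher. Of 9 plexins 1 was higher and 1 lower, and of 2 neuropilins 1 was higher. Sema3d and Sema5b did not pass the filter and stood at or under 0.319 CPM in every tumor.

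**Figure D1:**
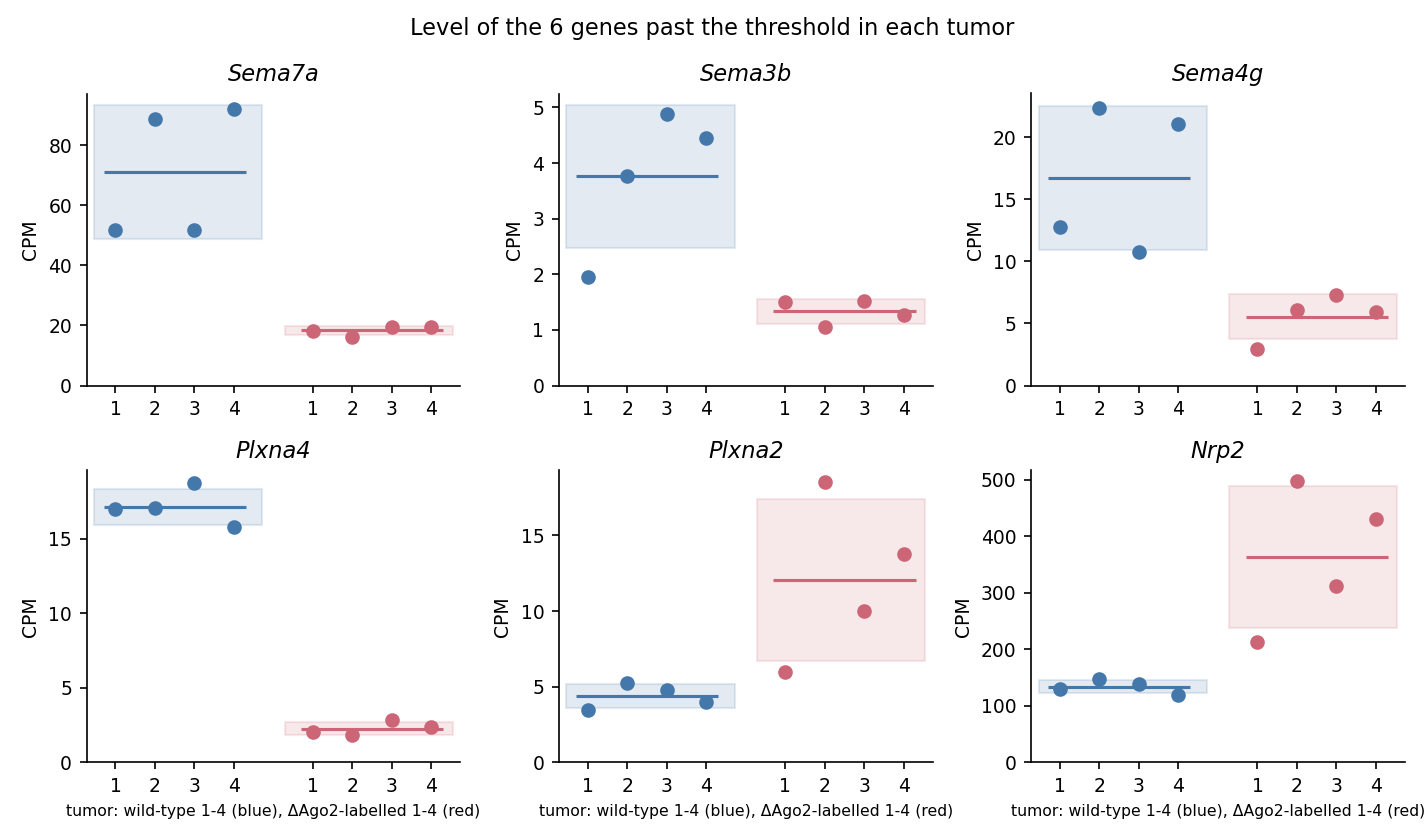
Level of the 6 genes past the threshold in each of the 8 tumors, in CPM (y axis, from 0), with wild-type tumors 1 to 4 in blue and ΔAgo2-labelled tumors 1 to 4 in red; lines mark group means and shading 1 SD. No group overlaps the other in any of the 6 genes, Plxna4 lies between 15.8 and 18.7 CPM in wild-type and under 3 CPM in ΔAgo2-labelled tumors, and Plxna2 and Nrp2 spread widely in the ΔAgo2-labelled group.

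Sema7a (ENSMUSG00000038264.8), the lipid-anchored semaphorin that signals through integrins and Plxnc1, had the lowest fold change among the ligands. It stood at 51.7, 88.7, 51.9 and 92.2 CPM across wild-type tumors 1 to 4 and at 18.2, 16.2, 19.5 and 19.6 CPM across ΔAgo2-labelled tumors 1 to 4. Every ΔAgo2-labelled tumor lay below every wild-type tumor, and the ΔAgo2-labelled group was narrow. The means were 71.1 ± 22.3 CPM and 18.4 ± 1.61 CPM (SD, n = 4), a 3.87-fold lower level (log2 fold change -1.95, standard error 0.25, adjusted p 0.00323 by edgeR's quasi-likelihood test). The call was kept in each of the 22 alternatives tried. Plxnc1, its plexin, stood at 2.36, 0.334, 3.07 and 1.00 CPM in the wild-type tumors and 3.20, 5.49, 2.96 and 3.78 CPM in ΔAgo2-labelled tumors. These groups overlapped and the log2 fold change of 1.13 (standard error 0.55) did not pass (adjusted p of 0.210 by edgeR).

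The gene lies on chromosome 9, from 57940112 to 57962865 of GRCm38 on the plus strand. Its start and that of Nrp2 are shown as the strongest lower and higher calls for which RefSeq windows were held, with each CpG in capitals. Each window reaches from 250 bases before to 50 bases after the annotated start on GRCm38.p6, plus strand.
Sema7a chr9:57939862-57940161: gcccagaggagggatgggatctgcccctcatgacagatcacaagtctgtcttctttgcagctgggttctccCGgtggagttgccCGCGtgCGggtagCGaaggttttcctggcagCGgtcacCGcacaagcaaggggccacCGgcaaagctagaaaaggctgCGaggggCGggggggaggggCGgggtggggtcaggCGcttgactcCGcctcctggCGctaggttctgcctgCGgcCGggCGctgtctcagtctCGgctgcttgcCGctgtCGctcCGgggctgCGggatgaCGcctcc
Nrp2 chr1:62703067-62703366: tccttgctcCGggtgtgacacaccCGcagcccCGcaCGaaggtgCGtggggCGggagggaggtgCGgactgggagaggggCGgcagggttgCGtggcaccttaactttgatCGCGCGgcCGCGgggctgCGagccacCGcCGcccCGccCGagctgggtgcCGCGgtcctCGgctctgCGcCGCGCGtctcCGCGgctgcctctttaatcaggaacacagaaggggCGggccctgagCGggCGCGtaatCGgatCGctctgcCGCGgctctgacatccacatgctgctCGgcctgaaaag
The Sema7a window held 23 CpG and a GC content of 67.3%, and the Nrp2 window 37 CpG and 70.7%. The table held 37 windows of 26 of the genes, with a median of 15 CpG against 7 over all 32851 windows. The GC box GGGCGG, searched on both strands and itself holding a CpG, was in 73.0% of these windows and 35.7% of all windows. An interferon-type element, GAAANNGAAA on either strand, was in 2 of the 37 windows (5.41%, all windows 3.44%). A STAT-type element, TTCNNNGAA, was in 1 of the 37 (2.70%, all windows 8.30%). Counts this small do not set the family apart from all windows. None of the windows of Sema7a, Nrp2, Plxna2 and Sema4g held either of the latter pair. Higher and lower genes thus both started in GC-rich windows.

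Of 6 secreted class 3 semaphorins tested, 1 was lower past the threshold and 0 higher, with 5 of the 6 fold changes below 0. Sema3b, a class 3 ligand known as a candidate tumor suppressor in lung cancer, stood at 1.95, 3.77, 4.88 and 4.44 CPM in the wild-type tumors and at 1.498, 1.04, 1.52 and 1.27 CPM in ΔAgo2-labelled tumors. The groups did not overlap but wild-type tumor 1 lay close to the other group. Its mean was 3.76 ± 1.29 CPM against 1.33 ± 0.224 CPM (SD, n = 4) (log2 fold change -1.49, standard error 0.36, adjusted p 0.0492 by edgeR's quasi-likelihood test). It lies beside Sema3f on chromosome 9 (107597674 to 107609229 and 107681500 to 107710475). Sema3f stood at 14.8, 25.4, 18.7 and 36.3 CPM against 12.4, 11.7, 19.6 and 18.8 CPM and did not pass (log2 fold change -0.60, adjusted p 0.235 by edgeR).

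Sema3a and Sema3e, near each other on chromosome 5, stood on opposite sides of 0 without passing the threshold. Sema3a, the classical repellent that acts through Nrp1 and class A plexins, stood at 45.1, 29.6, 53.6 and 26.8 CPM in the wild-type tumors and 7.51, 23.9, 13.6 and 18.7 CPM in ΔAgo2-labelled tumors. The groups lay apart, and ΔAgo2-labelled tumor 1 was lowest. The log2 fold change was -1.28 (standard error 0.36, adjusted p 0.0709 by edgeR), and it was -1.99 with an adjusted p of 0.00102 once each library's trend on GC content was removed. Sema3e, which binds Plxnd1 directly in vessels, stood at 64.8, 56.6, 58.7 and 43.9 CPM against 57.3, 172, 92.5 and 133 CPM. ΔAgo2-labelled tumor 1 lay within the wild-type range and the other 3 above it. The log2 fold change was 1.02 (standard error 0.31, adjusted p 0.0860 by edgeR), 0.35 with the GC trend removed, and 1.23 with an adjusted p of 0.0216 without ΔAgo2-labelled tumor 1. Sema3c and Sema3g did not reach an unadjusted p of 0.05 (log2 fold changes -0.48 and -0.04).

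Among membrane semaphorins, Sema4g, a class 4 ligand, stood at 12.8, 22.4, 10.8 and 21.1 CPM in the wild-type tumors and at 2.95, 6.05, 7.28 and 5.91 CPM in ΔAgo2-labelled tumors. No values overlapped. The means were 16.7 ± 5.82 and 5.55 ± 1.84 CPM (SD, n = 4) (log2 fold change -1.59, standard error 0.34, adjusted p 0.0355 by edgeR's quasi-likelihood test). With the GC trend removed it was -1.05 and no longer passed, with an adjusted p of 0.0809 (edgeR), and Sema3b likewise went to -1.13 and an adjusted p of 0.0949 (edgeR).

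The membrane semaphorins with the most RNA did not pass. Sema4c, a ligand of Plxnb2 and the semaphorin with the highest mean TPM over all tumors (counts divided by gene length and scaled to 1 total per library; 65.3 TPM), stood at 105, 182, 88.2 and 170 CPM against 66.3, 90.9, 79.0 and 75.5 CPM. By TPM it led in wild-type tumors, at 77.0 ± 25.3 against 38.0 ± 5.70 TPM for Sema4b, and Sema4b led in ΔAgo2-labelled tumors, at 65.8 ± 12.3 against 53.5 ± 16.7 TPM (SD, n = 4). The CPM groups overlapped through wild-type tumor 3, and the log2 fold change was -0.81 (standard error 0.26, adjusted p 0.0957 by edgeR). An opposite-strand gene shares 334 exon bases with it, and the strand setting of the counting was not given in the sources used here. Sema6b, a class 6 ligand of class A plexins, stood at 69.0, 121, 60.7 and 145 CPM against 51.4, 48.2, 53.9 and 50.3 CPM. The groups lay apart, with a log2 fold change of -0.95 (adjusted p 0.0779 by edgeR), which was -0.08 with the GC trend removed. Sema6c stood at 4.37, 10.6, 7.21 and 20.8 CPM against 6.48, 4.53, 5.91 and 5.27 CPM and overlapped (log2 fold change -0.93, adjusted p 0.186 by edgeR).

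Sema4b, another class 4 ligand, leaned the other way. It stood at 59.5, 83.8, 73.6 and 118 CPM in the wild-type tumors and 130, 121, 130 and 103 CPM in ΔAgo2-labelled tumors. ΔAgo2-labelled tumor 4 lay below wild-type tumor 4, so the groups overlapped. The log2 fold change was 0.53 (standard error 0.23, adjusted p 0.167 by edgeR) and 0.96 with an adjusted p of 0.00753 when the GC trend was removed. Sema4d, Sema4a, Sema4f, Sema5a, Sema6a and Sema6d were between -0.58 and 0.19 on the log2 scale, and none of these reached an unadjusted p of 0.05.

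Plxna4 (ENSMUSG00000029765.12), a class A plexin that carries class 3 and class 6 semaphorin signals in neurons, had the largest change of the family. It stood at 17.0, 17.1, 18.7 and 15.8 CPM across wild-type tumors 1 to 4 and at 2.01, 1.85, 2.81 and 2.39 CPM across ΔAgo2-labelled tumors 1 to 4. Both groups were tight and far apart. The means were 17.1 ± 1.22 and 2.26 ± 0.426 CPM (SD, n = 4), a 7.59-fold lower level (log2 fold change -2.92, standard error 0.24, adjusted p 0.00102 by edgeR's quasi-likelihood test). The gene lies on chromosome 6 from 32144268 to 32588192 on the minus strand, and the antisense gene that shares 110 of its exon bases had no counts. The call held in 21 of 22 alternatives, and the exception was limma on log2(TPM + 1) with no filter, with an adjusted p of 0.0560.

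Plxna2, a class A plexin for Sema3 and Sema6 ligands, went the opposite way. It stood at 3.49, 5.24, 4.79 and 4.01 CPM in the wild-type tumors and at 5.99, 18.6, 9.9997 and 13.8 CPM in ΔAgo2-labelled tumors. The groups lay apart in CPM, with ΔAgo2-labelled tumor 1 closest to wild-type. The means were 4.38 ± 0.786 and 12.1 ± 5.36 CPM (SD, n = 4) (log2 fold change 1.46, standard error 0.35, adjusted p 0.0474 by edgeR's quasi-likelihood test). With ΔAgo2-labelled tumor 1 left out the log2 fold change was 1.68 (adjusted p 0.0148), and the call was lost when any other single tumor was left out (adjusted p from 0.0504 to 0.147). On the TPM scale ΔAgo2-labelled tumor 1, at 0.77 TPM, lay within the wild-type range of 0.47 to 0.87 TPM.

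The other plexins did not pass. Plxna3, which works with Nrp2 for Sema3f, stood at 14.3, 32.4, 14.2 and 29.7 CPM against 6.59, 17.5, 10.5 and 10.1 CPM. The groups overlapped, with a log2 fold change of -1.01 (standard error 0.37, adjusted p 0.125 by edgeR). Plxnb2, the receptor of class 4 semaphorins on epithelial and tumor cells, had the highest TPM of the whole family (174 TPM). It stood at 421, 715, 335 and 583 CPM against 288, 495, 446 and 439 CPM, with a log2 fold change of -0.30 (adjusted p 0.490 by edgeR). Its sign turned to 0.22 with the GC trend removed. Plxna1, Plxnb1, Plxnb3 and Plxnd1 were between -0.60 and 0.17 on the log2 scale, and Plxnd1, the Sema3e receptor of vessels, stood at 78.9 to 135 CPM and 81.6 to 126 CPM.

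Nrp2 (ENSMUSG00000025969.15), the co-receptor of Sema3f and of VEGF-C, stood at 130, 147, 138 and 120 CPM across wild-type tumors 1 to 4 and at 213, 498, 312 and 430 CPM across ΔAgo2-labelled tumors 1 to 4. Every ΔAgo2-labelled tumor lay above every wild-type tumor, and tumor 1 was the lowest of them. The means were 134 ± 11.7 and 363 ± 126 CPM (SD, n = 4), a 2.71-fold higher level (log2 fold change 1.44, standard error 0.26, adjusted p 0.0180 by edgeR's quasi-likelihood test). The log2 fold change was 1.62 (adjusted p 0.00574) without ΔAgo2-labelled tumor 1. The call was lost without wild-type tumor 2 or 4 or ΔAgo2-labelled tumor 2 or 4, with adjusted p of 0.0615, 0.0502, 0.0579 and 0.0699.

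Nrp1, the co-receptor of Sema3a and VEGF-A, stood at 38.8, 30.4, 33.6 and 21.1 CPM in the wild-type tumors and 14.2, 25.5, 16.8 and 22.6 CPM in ΔAgo2-labelled tumors. The groups overlapped through wild-type tumor 4. The log2 fold change was -0.65 (standard error 0.26, adjusted p 0.147 by edgeR), and -1.27 with an adjusted p of 0.00311 when the GC trend was removed.

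**Figure D2:**
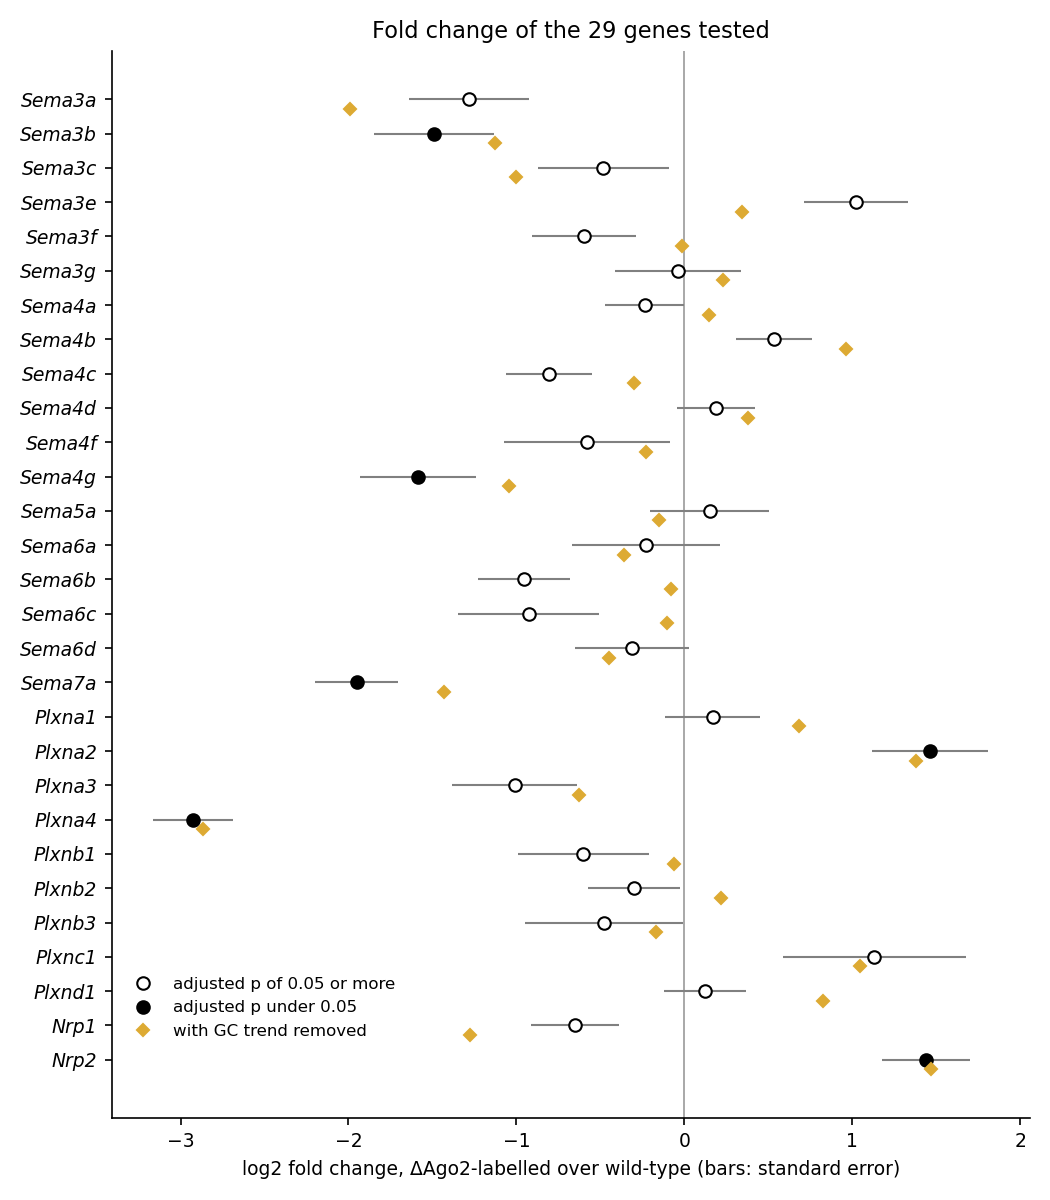
Log2 fold change (x axis, ΔAgo2-labelled over wild-type) of the 29 genes tested, with bars of 1 standard error, filled circles for an adjusted p under 0.05 and diamonds for the value with the GC trend of each library removed. Plxna4, Sema7a, Nrp2 and Plxna2 stay on the same side in both, while Plxnb2 changes sign and Sema6b moves from -0.95 to -0.08.

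The members were GC-rich and long. Their longest transcripts had a median GC content of 56.2% against 49.8% over all genes tested, and a median exon length of 7720 bases against 3924. With each library's GC trend removed, 7 of the 29 passed (24.1%, all genes 3.79%). These were Nrp2 (1.47), Plxna2 (1.38) and Sema4b (0.96) above 0, and Sema3a (-1.99), Plxna4 (-2.87), Nrp1 (-1.27) and Sema7a (-1.43) below, as log2 fold changes. The median of the 29 was then -0.10, so the lean below 0 in the family was smaller, while Plxna4, Sema7a, Nrp2 and Plxna2 kept their calls. Of 18 semaphorins, 14 were below 0 as fitted and 13 with the GC trend removed. With each library's trend on exon length removed instead, the lean below 0 was larger. The median of the 29 was then -0.61, and 23 of them were below 0 against 20 as fitted, as were 15 of the 18 semaphorins.

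**Figure D3:**
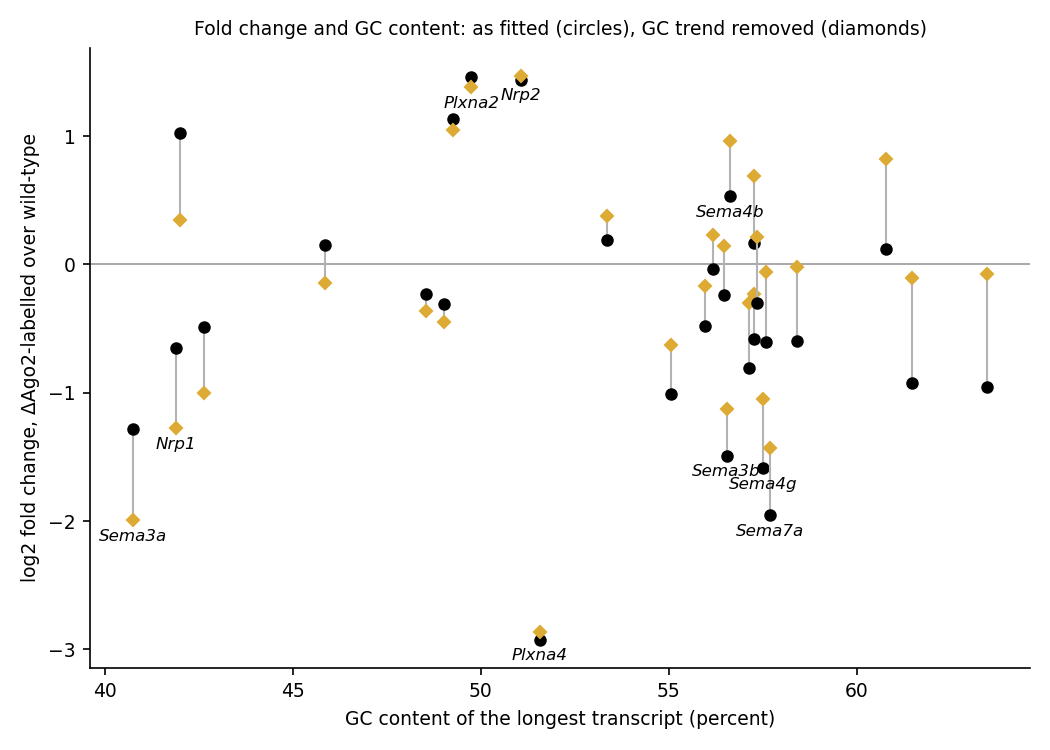
Log2 fold change (y axis) against GC content of the longest transcript in percent (x axis) for the 29 genes tested, as fitted (circles) and with the GC trend removed (diamonds), joined by a line. Genes above about 55% move up and genes below about 45% move down, whereas Plxna4, Plxna2 and Nrp2, near 50%, hardly move.

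The levels of the genes were compared with each other per length, on the deposited TPM. Plxnb2 (174 TPM over all 8 tumors), Sema4c (65.3), Nrp2 (65.1), Plxna1 (53.03), Sema4b (51.9), Sema6b (51.6) and Plxnd1 (42.6) had the highest means over both genotypes, and the order from Sema4c to Plxnd1 lay within the spread between tumors. The order differed by genotype. In wild-type tumors Sema7a, at 55.7 ± 14.9 TPM, lay above Nrp2 at 30.2 ± 6.74 TPM, and in ΔAgo2-labelled tumors it lay below, at 17.2 ± 3.56 against 100.0 ± 49.7 TPM (SD, n = 4). Sema3e was the highest secreted semaphorin, at 16.2 ± 4.61 TPM in wild-type and 40.4 ± 23.3 TPM in ΔAgo2-labelled tumors (SD, n = 4). Plxna4 and Plxna2, in contrast, were scarce, at 3.24 ± 0.685 and 0.68 ± 0.187 TPM in wild-type tumors.

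**Figure D4:**
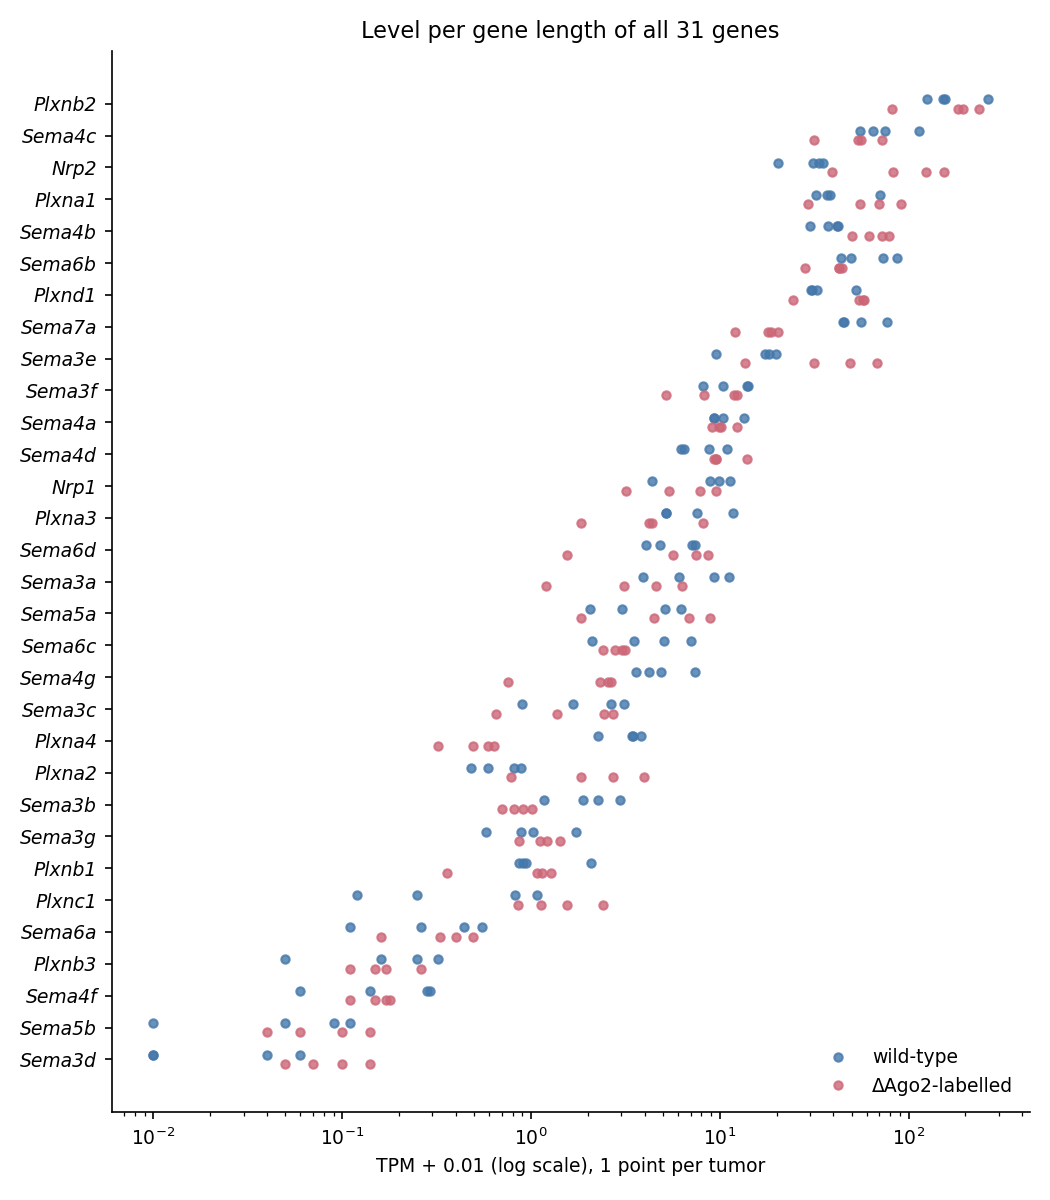
TPM of all 31 genes in each tumor, plotted as TPM + 0.01 on a log axis and ordered by the mean over 8 tumors, with wild-type in blue and ΔAgo2-labelled in red. Plxnb2 is at the top and Sema3d and Sema5b at the bottom, where a value of 0 TPM sits at 0.01.

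The balance between related genes was compared within each tumor, where any factor common to all genes of a library cancels. A library's trend on GC content need not cancel between genes that differ in it, such as Nrp1 (41.9%) and Nrp2 (51.1%). Nrp2 made up 73.5% to 82.4% of neuropilin TPM in the 4 wild-type tumors and 92.5% to 94.2% in the ΔAgo2-labelled tumors, and Nrp2 to Nrp1 was 2.77, 3.99, 3.40 and 4.69 against 12.4, 16.1, 15.4 and 15.7. Plxna2 to Plxna4 was 0.169 to 0.252 in wild-type and 2.48 to 8.25 in ΔAgo2-labelled tumors, so Plxna4 was the more abundant of this pair in each wild-type tumor and Plxna2 in each ΔAgo2-labelled tumor. Sema3e to Sema3a was 1.63 to 2.86 against 10.1 to 11.4. Sema7a made up 17.6% ± 0.938 and 6.49% ± 0.909 of semaphorin TPM (SD, n = 4), while Sema4b stood at 12.3% ± 1.76 and 24.9% ± 3.70. Among plexins, Plxnb2 made up 64.7% ± 1.41 and 59.0% ± 1.05. The pairs were chosen after the levels were seen, so these are descriptions with no test.

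**Figure D5:**
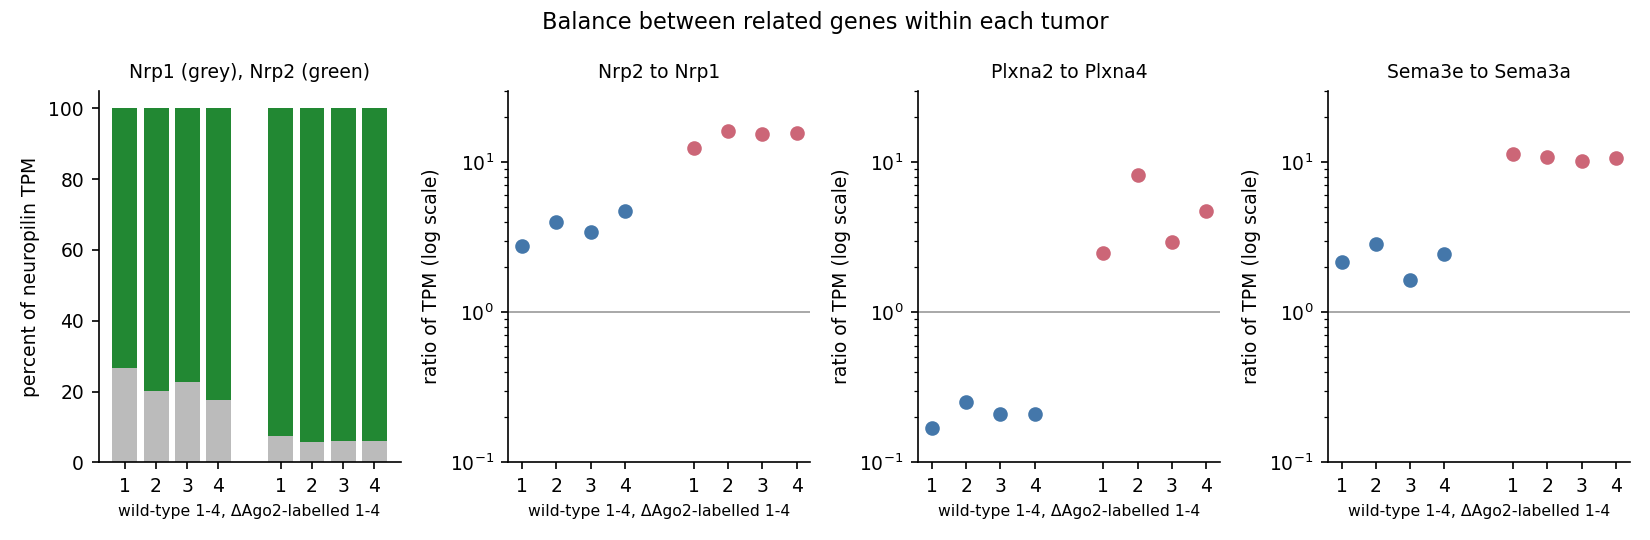
Within each tumor, the share of neuropilin TPM from Nrp1 and Nrp2 (left, percent) and the ratio of TPM of 3 pairs of genes (log axes), with wild-type tumors 1 to 4 in blue and ΔAgo2-labelled tumors 1 to 4 in red. Each ratio is higher in all 4 ΔAgo2-labelled tumors than in any wild-type tumor.

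MicroRNA sites were looked at because Ago2 carries these RNAs. Seed matches of 10 widely studied microRNAs were searched in the 3' UTR of one transcript per gene. The let-7a match, held by 4 of the 6 genes past the threshold, is shown with the seed and the 7-base match in capitals. A miR-27a match was held by 4 of the 6 as well (Sema7a, Plxna2, Plxna4 and Nrp2). The let-7a match was chosen after the matches were counted.
let-7a-5p: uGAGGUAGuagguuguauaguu
Nrp2 site: ttgaggtgtcCTACCTCagtgg
Plxna2 site: gtctgatgttCTACCTCtttct
Plxna4 site: caaggagattCTACCTCcagcc
Sema4g site: catccctgtcCTACCTCaccag
A let-7a match was in 10 of the 29 3' UTRs (34.5%) and in 10.3% of 13657 over all genes tested, where the median 3' UTR was 1400 bases for the family and 1139 for all. The 3' UTRs of the 4 genes shown had 3325 (Nrp2), 4708 (Plxna2), 6221 (Plxna4) and 1400 bases (Sema4g). Those of Sema7a and Sema3b, with no let-7a match, had 1264 and 554 bases. A longer 3' UTR holds more matches by length alone, and the shares were not adjusted for length. Of the 4 genes shown, Nrp2 and Plxna2 were higher and Plxna4 and Sema4g lower. A miR-30a match was in 10 of the 29 as well (34.5%, all genes 15.6%), while a miR-29a match was in 1 (3.45%, all genes 15.2%). The family share was also above that of all genes for miR-16 (37.9% against 23.9%), miR-17 (27.6% against 13.9%) and miR-27a (27.6% against 17.1%). The same held for miR-34a (27.6% against 16.8%), miR-200b (27.6% against 14.7%), miR-21a (13.8% against 7.63%) and miR-155 (13.8% against 8.93%). A match is a run of letters and not a measured site.

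Other genes of the pathway were read from 4 lists, of which 67 of 72 genes were tested and 4 passed (5.97%), a share near the 3.49% of all genes. Ptk7, a receptor-like protein of cell polarity that can bind plexins, stood at 117, 200, 109 and 181 CPM in the wild-type tumors and 20.4, 27.6, 35.8 and 33.1 CPM in ΔAgo2-labelled tumors. All ΔAgo2-labelled tumors lay below (log2 fold change -2.37, standard error 0.27, adjusted p 0.00215 by edgeR's quasi-likelihood test). Cd44, a hyaluronan receptor, was higher at 264, 226, 338 and 219 against 435, 550, 408 and 536 CPM (log2 fold change 0.88, adjusted p 0.0492 by edgeR). With the GC trend removed its log2 fold change was 0.49 and no longer passed (adjusted p 0.0946 by edgeR). Mical2, an actin-oxidising enzyme of the plexin pathway, was lower at 41.9, 54.7, 49.2 and 50.9 against 18.1, 28.7, 27.0 and 30.6 CPM (log2 fold change -0.91, adjusted p 0.0455). Adamts1, a protease that cleaves semaphorins, was lower at 41.6, 54.9, 45.9 and 41.9 against 8.31, 19.0, 21.9 and 22.0 CPM (log2 fold change -1.37, adjusted p 0.0355). When each tumor was left out in turn, Ptk7 passed in all 8 fits, Adamts1 in 3, and Mical2 and Cd44 in 2 each.

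By list, 2 of 15 co-receptor genes passed, 1 in each direction, as did 1 of 36 plexin effectors and 1 of 8 proteases, both lower. None of the 8 VEGF ligands and receptors passed at the adjusted threshold by edgeR. Vegfc, the ligand of Nrp2, stood at 11.7, 9.49, 12.8 and 12.9 CPM against 14.2, 16.0, 20.3 and 21.2 CPM, with groups apart (log2 fold change 0.61, unadjusted p 0.0178, adjusted p 0.120 by edgeR). Pgf stood at 12.9, 11.3, 29.3 and 57.3 against 16.5, 5.03, 13.9 and 12.6 CPM and overlapped (unadjusted p 0.0437 by edgeR).

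Marker lists of other cell types differed as well, and their part in the results was not tested. Fibroblast markers, 10 of 10 tested, summed to between 4940 and 7275 CPM in wild-type and between 2323 and 4677 CPM in ΔAgo2-labelled tumors. Most of that sum was 1 collagen, Col3a1, at means of 4759 and 2931 CPM. Of the 10, Fap was lower past the threshold, and Pdgfra, Postn and Dcn had log2 fold changes above 0 (0.68, 0.70 and 0.16). Skeletal muscle markers summed to between 250.7 and 3413 CPM against 49.0 and 203 CPM, with wild-type tumor 3 highest and Myh2 lower past the threshold. Of 12 nerve and Schwann cell markers 10 were tested and 3 were lower, namely Gap43, Prph and Nefl. Gap43, a growth cone protein, stood at 4.33, 2.38, 6.03 and 3.01 CPM against 0.410, 0.0175, 0.119 and 0.112 CPM (log2 fold change -4.70, adjusted p 0.0103 by edgeR). The median log2 fold change of the 10 tested was -0.98, with 3 above 0. The Schwann cell marker Sox10 was at 0 in wild-type tumor 4. The summed level of that list nonetheless overlapped (92.5 to 112 against 99.2 to 123 CPM). Most of that sum was 1 gene, Mbp, at means of 62.5 and 88.4 CPM, so the sum says little of the other markers. Endothelial markers overlapped as well (146 to 227 against 131 to 179 CPM), and Vwf was lower past the threshold. All 10 keratinocyte markers had fold changes above 0 and 1 of them, Krt10, was higher past the threshold. Their sum overlapped, at 14.6 CPM in wild-type tumor 3, 179 to 603 CPM in the other wild-type tumors and 493 to 938 CPM in ΔAgo2-labelled tumors. The dendritic cell, T cell, NK cell, B cell, neutrophil, macrophage and adipocyte lists had 0 called.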

How the data were processed

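RNA was sequenced from 8 subcutaneous LLC tumors, 4 wild-type and 4 labelled Ago2 knock-out, grouped by sample title. Raw counts per gene, not normalized, were deposited together with TPM, for which the authors corrected counts for gene length and set each library to 1 total. The submitters' processing notes name STAR and mm10, and the study's methods name featureCounts. The strand setting, annotation release and treatment of reads with several matches are not given in the sources used here. Identifiers were matched to GENCODE M21 on GRCm38 (55094 of 55487).

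Counts were analysed with edgeR 4.0.16 in R 4.3.3. Genes were filtered with filterByExpr, libraries scaled by TMM, and genotypes compared by its quasi-likelihood test without covariates, with Benjamini-Hochberg adjusted p over all 16061 genes tested and a threshold of 0.05. Every adjusted p in the report is from this test unless another tool is named. CPM values use scaled library totals. Each library's trend on GC content was estimated from genes averaging 50 counts or more and was used as an offset. GC content is that of the longest transcript, and promoter windows, microRNAs and their GRCm38.p6 positions came from RefSeq. Low genes are less precise in the shallow libraries. Titles number the tumors as biological replicates, and all libraries carry batch label 1.

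The members and lists were chosen with earlier results of these data known. Values per tumor were given for genes past the threshold, those with an unadjusted p under 0.05 or groups apart, the highest TPM of each role, and the pathway genes past the threshold or, failing any, the 2 lowest p of a list. Others were named after their values were seen. On simulated counts, 145 of 192 changed genes (75.5%) among 15771 were recovered and 2.68% of calls were false. How recovery varies with fold change was not tested, so 75.5% need not hold for the family genes that did not pass. Alternatives, with DESeq2 1.42.0 and limma 3.58.1 among the tools, are given below.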

Additional observations from a re-analysis of the deposited data

Results flagged for a closer look

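Plxnb3, a class B plexin with a low level throughout, stood at 0.507 CPM in ΔAgo2-labelled tumor 3, against 0.273 to 0.290 CPM in the other 3 tumors of that group. The gap to the nearest tumor was 0.93 of the range of the group, above Dixon's limit for 4 samples. It was the 1 such value among 58 groups of 4 examined, where chance alone gives about 2.9.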

How the results depend on the processing

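Of 22 alternatives, 8 left out 1 tumor each. The number of family genes past the threshold was 6 (2 higher, 4 lower), with 4 pathway genes. Total counts as library size gave 3 (1 higher, 2 lower) and 1 pathway gene. DESeq2's Wald test gave 10 (3 higher, 7 lower) and 7 pathway genes, and limma voom with quality weights 12 (5 higher, 7 lower) and 23 pathway genes. With the length trend removed 7 were lower. Limma on log2(TPM + 1) and on log2(TPM + 0.1) each gave 2 (0 higher, 2 lower) and 1 pathway gene, and log2(TPM + 1) with no filter gave 1 (0 higher, 1 lower) and 0 pathway genes. The cause of these differences was not tested. Over all genes the calls ranged more widely, at 560 as fitted, 2265 with DESeq2, 4476 with voom, 983 with no filter, 1167 with the length trend removed, 153, 107 and 77 on the TPM scales and 417 with total counts. The median of all genes was 0.21 on log2(TPM + 1) and 0.28 on log2(TPM + 0.1), against 0.04 as fitted. Plxnb2 changed sign to 0.020 with voom, 0.22 with the GC trend removed and 0.18 with the replicate block and the GC trend removed.

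Without each tumor in turn, 2 to 7 family genes passed (0 to 3 higher, 2 to 5 lower), and 1 to 10 pathway genes. The number was 2 without wild-type tumor 2 or 4 or ΔAgo2-labelled tumor 2 or 4, and 3 without ΔAgo2-labelled tumor 3. The pathway count was 10 without ΔAgo2-labelled tumor 1, when 1793 of all genes passed. Over all genes the lowest such count was 88, without ΔAgo2-labelled tumor 4. Plxna4 and Sema7a passed in all 8 such fits, Nrp2 in 4, Sema4g in 3, Sema3b in 2 and Plxna2 in 1.

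The replicate numbers did not pair the tumors, since same-numbered tumors correlated at -0.24, 0.10, -0.04 and -0.29. With the replicate block 2 family genes passed, Plxna4 and Sema7a (0 higher, 2 lower), with 1 pathway gene, and 70 of all genes. With the block and the length trend removed, 1 was higher. The shallowest library, wild-type tumor 4, limits what could be seen of the scarcest genes, Sema3d and Sema5b.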
